A study of Rattus norvegicus with 12 samples.

Results

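The late response of the lumbar spinal cord to spinal cord injury (SCI) was set against the early one by comparing rat lumbar cord tissue (segments L3 to L5) 14 days after SCI with the same tissue 3 days after SCI. The labels put 3 libraries in each group by treatment and time, so 6 of the 12 libraries of the series were compared; the other 6 were sham tissue at day 0 and SCI tissue at day 7. Whole tissue RNA was sequenced. Neither the strain, sex and age of the rats nor the kind and spinal level of the injury is given in the sources used here, nor is it stated that each sample is its own animal. All p-values therefore cover no more than sample-to-sample variation, part or all of which can be technical. Sham tissue was taken at day 0 alone, so the effects of surgery and of injury at either later day cannot be told apart. Total counts ran from 63010295 to 79072710 per library over the 6 libraries.

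An injured spinal cord passes through overlapping phases. In the first days, surviving cells transcribe immediate early genes and release cytokines and chemokines, vessels become leaky, blood cells enter and resident glia divide. Later, astrocytes and fibroblasts enclose the lesion, microglia and macrophages clear myelin debris and take up its lipid, and oligodendrocytes are in part replaced. In bulk tissue, fewer cells of a type and less RNA per cell cannot be told apart.

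A median said to run from one value to another gives its lowest and highest value with 1 library left out at a time. Levels are given as CPM, read counts scaled to library size with TMM normalisation, and values of a group are listed in the order of replicates 1, 2 and 3. Markers of spinal cord were present in every library: Gfap of astrocytes was at 1004 CPM or more, Mbp of oligodendrocytes at 16200.0 CPM or more, and Hoxc10 and Hoxd10, which mark lumbar level, at 12.7 and 5.92 CPM or more. The neuronal gene Snap25, a part of the vesicle fusion machinery, separated the day 3 libraries, at 84.1, 936 and 88.8 CPM, and it stood at 930.0, 394 and 762 CPM at day 14. Day 3 replicates 1 and 3 were therefore low in neuronal transcripts and day 3 replicate 2 was not. Those libraries also had the smallest shares of counts from the mitochondrial genome, 5.62% and 5.43%, against 10.2% in day 3 replicate 2 and 6.47% to 9.67% at day 14. Transcripts of sensory ganglia varied within both groups. The sodium channel Scn10a of sensory ganglion neurons was at 0.341, 19.6 and 0.700 CPM at day 3 and 79.6, 131 and 0.184 CPM at day 14.

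The day 3 libraries differed from each other more than the day 14 libraries did. Over 15319 genes with a mean of at least 1 CPM, the median SD within a group on the log2 scale was 0.415 at day 3, 0.260 at day 14, 0.241 at day 7 and 0.198 in sham. The median absolute difference between 2 libraries was 0.378 for day 3 replicates 1 and 3, and 0.538 and 0.515 between replicate 2 and these. Between day 3 replicate 2 and the day 14 libraries it was 0.230, 0.305 and 0.237. By this measure day 3 replicate 2 lay closer to each day 14 library than to the other libraries of its own day. It lay closer still to day 7 replicate 3 (0.207) and sham replicate 2 (0.211).

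**Figure D1:**
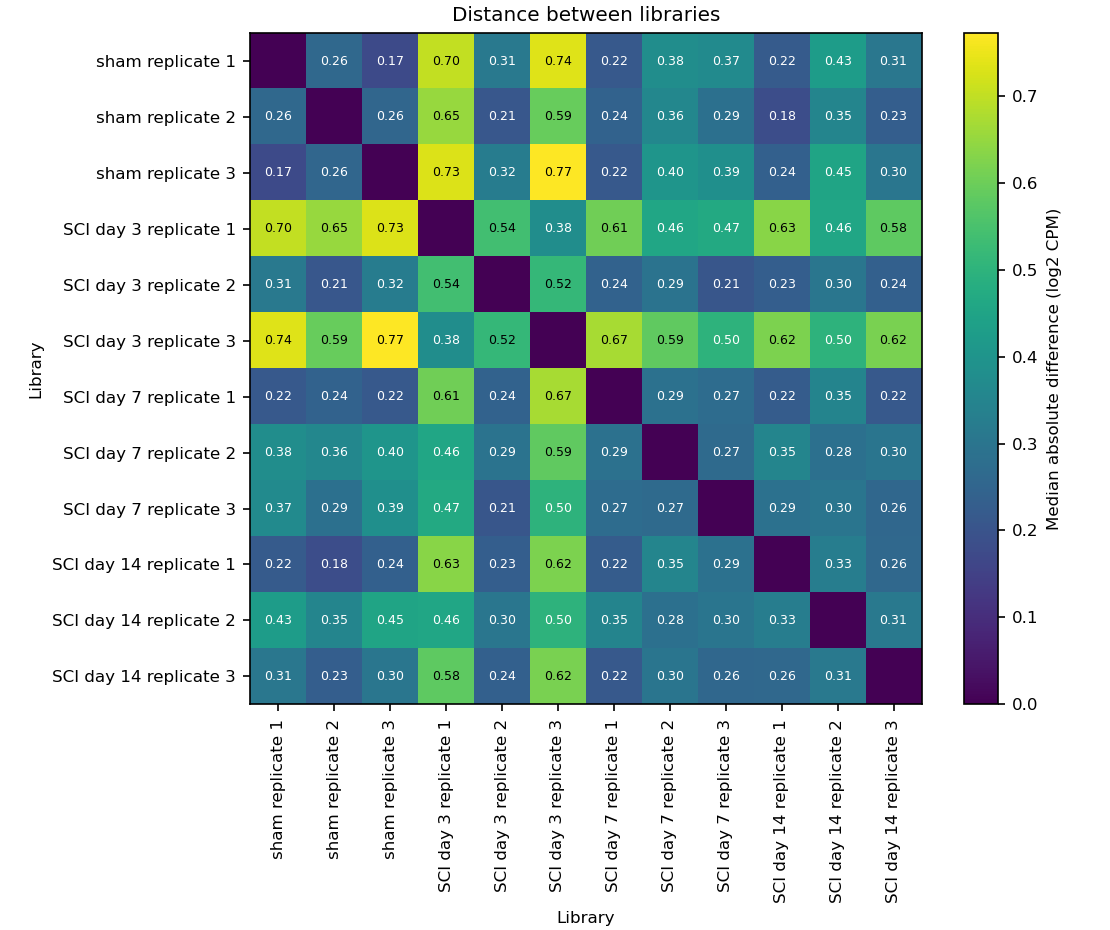
Median absolute difference in log2 CPM between each pair of the 12 libraries, over 15319 genes; rows and columns are libraries and the colour scale gives the difference. SCI day 3 replicates 1 and 3 stand at 0.378 from each other, and SCI day 3 replicate 2 stands at 0.230 to 0.305 from the SCI day 14 libraries.

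Across the 18714 genes tested, none passed an adjusted p of 0.05 between day 14 and day 3 in edgeR's quasi-likelihood test with Benjamini-Hochberg adjustment (0 called, 0%). The smallest adjusted p was 0.0807, for Mall and Aldh1l1. At an unadjusted p under 0.05 there were 3343 genes (17.9%), 2064 lower (11%) and 1279 higher (6.83%) at day 14. DESeq2 called 1096 genes, 771 lower (4.7%) and 325 higher (1.98%), 6.68% of the 16401 to which it gave an adjusted p, and limma voom with sample weights called 0 (4960 at an unadjusted p under 0.05). Without day 3 replicate 2, the day 3 library with neuronal transcripts near the day 14 level, edgeR called 4342 genes, 1882 lower (9.86%) and 2460 higher (12.9%; together 22.8% of 19084). The number of calls thus depended on that library. The results that follow are given library by library, with no gene described as having passed the test.

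A second description used only the order of the libraries. In 3077 genes (16.4%) all 3 day 14 libraries lay on one side of all 3 day 3 libraries: 1764 genes were lower (9.43%) and 1313 higher at day 14 (7.02%). Of these, 474 were lower and 530 higher by a fitted fold of at least 2 (2.53% and 2.83%). Day 3 replicate 2 is one of the libraries that must fall in line here, so this set does not rest on replicates 1 and 3 alone. Some genes fall into such a set by order alone, and their share was not estimated. The median log2 fold change (day 14 minus day 3) of all genes tested was 0.00600.

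Of the genes lower at day 14 without overlap, the smallest p belonged to Mall (ENSRNOG00000015599, chromosome 3), a membrane raft protein of the MAL family. It measured 32.9, 16.96 and 59.4 CPM at day 3 and 2.71, 3.76 and 3.12 CPM at day 14, with 2.997, 3.29 and 2.23 CPM in sham (log2 fold change -3.51 ± 0.429, SE; edgeR adjusted p = 0.0807). Fosb (ENSRNOG00000046667), an AP-1 transcription factor subunit, followed with 24.5, 30.1 and 27.6 CPM at day 3 and 2.49, 6.05 and 4.39 CPM at day 14 (log2 fold change -2.67 ± 0.396, SE; edgeR adjusted p = 0.144). In both genes the day 3 libraries, replicate 2 included, lay several times above the day 14 libraries, and the sham means were 2.84 and 1.68 CPM. Apcdd1, a Wnt inhibitor of the cell surface, measured 141, 123 and 122 CPM at day 3 and 49.1, 45.2 and 50.4 CPM at day 14. Dusp5, a nuclear phosphatase that switches off ERK, measured 15.8, 7.20 and 19.1 CPM at day 3 and 3.65, 3.34 and 2.27 CPM at day 14. Hmga1, a chromatin protein of growing cells, measured 239, 132 and 234 CPM at day 3 and 70.9, 70.7 and 103 CPM at day 14. The day 3 libraries were tight for Apcdd1, while for Dusp5 and Hmga1 replicate 2 was the lowest of them.

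Of the other genes named on this side, Gja5, the gap junction protein of arterial endothelium, was at 42.2, 7.62 and 27.1 CPM at day 3 and 2.21, 1.60 and 1.08 CPM at day 14 (log2 fold change -3.98). Nos3, the endothelial nitric oxide synthase, was at 123, 39.4 and 166 CPM at day 3 and 23.2, 21.4 and 22.8 CPM at day 14 (log2 fold change -2.28), and the endothelial junction protein Esam at 76.1, 44.6 and 86.8 CPM at day 3 and 27.7, 26.5 and 27.2 CPM at day 14 (log2 fold change -1.35). Day 3 replicate 2 lay between the day 14 libraries and day 3 replicates 1 and 3 in each of these genes, and for Nos3 and Esam the day 14 libraries were nearly level. Srgn, the core protein of secretory granules in blood cells and endothelium, was at 56.3, 50.3 and 55.5 CPM at day 3 and 16.5, 24.9 and 21.6 CPM at day 14, without that gap between the day 3 libraries. Upp1, which breaks down uridine, was at 40.04, 29.3 and 66.5 CPM at day 3 and 6.71, 8.82 and 10.6 CPM at day 14. Rpia, an enzyme of the pentose phosphate pathway, measured 18.01, 14.02 and 21.1 CPM at day 3 and 7.29, 6.98 and 6.35 CPM at day 14. Mrps18b, a protein of the mitochondrial ribosome, differed least, with a log2 fold change of -0.68. The adjusted p of the 11 genes other than Mall ran from 0.144 to 0.188 (edgeR).

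Of the genes higher at day 14 without overlap, Aldh1l1 (ENSRNOG00000047023, chromosome 4), a folate enzyme used as a marker of astrocytes, had the smallest p. It measured 15.8, 15.96 and 11.5 CPM at day 3 and 47.8, 35.05 and 41.7 CPM at day 14, and 56.9, 43.1 and 56.9 CPM in sham (log2 fold change 1.53 ± 0.190, SE; edgeR adjusted p = 0.0807). All 3 day 3 libraries stood close together for this gene and below every day 14 and sham library. Cbs, which makes cystathionine from homocysteine and is rich in astrocytes, measured 5.70, 6.78 and 5.56 CPM at day 3 and 19.01, 25.02 and 49.8 CPM at day 14 (log2 fold change 2.38 ± 0.355, SE; edgeR adjusted p = 0.144). Nkain4, a membrane protein that interacts with the sodium pump, measured 1.71, 4.62 and 2.83 CPM at day 3 and 9.76, 12.8 and 17.1 CPM at day 14. Each of these genes was higher in the lowest day 14 library than in the highest day 3 library.

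Srebf1, the transcription factor of fatty acid synthesis, measured 40.4, 63.8 and 52.7 CPM at day 3 and 105, 141 and 157 CPM at day 14. Acacb, the acetyl-CoA carboxylase that restrains fatty acid oxidation, measured 6.11, 10.3 and 11.7 CPM at day 3 and 27.5, 27.6 and 42.6 CPM at day 14. Fah, the last enzyme of tyrosine breakdown, measured 23.3, 21.3 and 15.4 CPM at day 3 and 40.1, 56.2 and 79.2 CPM at day 14. Clybl, a mitochondrial citramalyl-CoA lyase, measured 2.66, 4.13 and 2.37 CPM at day 3 and 8.89, 5.70 and 10.4 CPM at day 14. For Srebf1 all 3 day 14 libraries also stood above the sham libraries, which measured 88.5, 96.7 and 92.2 CPM. Idua, a lysosomal enzyme that degrades glycosaminoglycans, had a log2 fold change of 0.98, Thnsl2 of 1.27, the ubiquitin ligase adaptor Asb2 of 2.65, the microtubule protein Map7d3 of 1.37 and the cilium protein Evc of 1.32. The adjusted p of the 11 genes other than Aldh1l1 ran from 0.144 to 0.188 (edgeR).

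**Figure D2:**
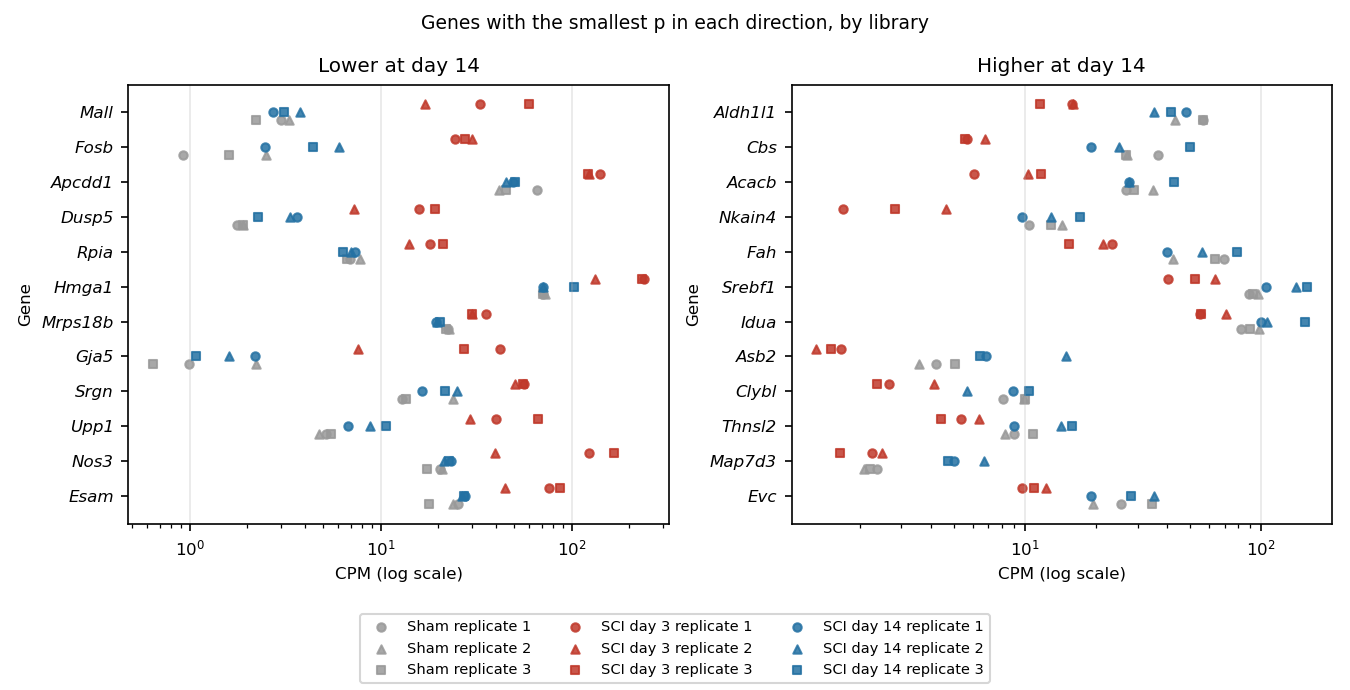
CPM on a log axis for the 12 genes with the smallest p in each direction among named genes with at least 5 CPM and no overlap of day 3 and day 14; each point is 1 library, coloured by group and shaped by replicate. Red day 3 points lie on one side of blue day 14 points in every row, since that chose the genes. Day 3 replicate 2 (red triangle) is the day 3 point nearest to day 14 for Gja5, Nos3, Esam and Aldh1l1. For Aldh1l1 it lies close beside day 3 replicate 1.

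Immediate early genes, which cells switch on within minutes of a stimulus without new protein, were lower at day 14 in 20 of 21 members tested, with a median log2 fold change of -1.30. In 7 members the groups did not overlap, all of them lower at day 14, a share of 33.3% against 9.43% of all genes tested. Maff, a small Maf transcription factor, measured 119.5, 23.9 and 93.4 CPM at day 3 and 4.22, 11.4 and 9.30 CPM at day 14. Fos measured 111, 100.1 and 121 CPM at day 3 and 24.1, 49.2 and 28.3 CPM at day 14. Fosl1, a later AP-1 subunit, measured 75.3, 62.6 and 135 CPM at day 3 and 36.4, 32.99 and 46.9 CPM at day 14. The stress factor Atf3 overlapped between days, at 46.8, 21.8 and 74.5 CPM at day 3 and 9.58, 31.5 and 17.7 CPM at day 14. The log2 level of the list relative to sham was 1.90, 1.49 and 2.68 at day 3 and 0.61, 1.35 and 0.67 at day 14, so every library of both days was above sham and day 14 replicate 2 came close to day 3 replicate 2. Of the 21 members, 9 were called lower without day 3 replicate 2 (9.86% of all genes were) and 9 by DESeq2 (4.7% of all genes). With single libraries left out, the list's median ran from -1.60 without day 3 replicate 2 to -0.86 without day 3 replicate 3.

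Promoters of immediate early genes are known for cyclic AMP response elements (CRE, letters TGACGTCA, the same on both strands), bound by CREB and related factors. RefSeq promoters of the rat build GRCr8 (250 bases before to 50 after the start) were matched for 14 of the 21 members, and 4 of them (28.6%) held a CRE, against 612 of 33469 promoters in all (1.83%). A CRE was also in 2 of 13 promoters of the endothelial list (15.4%) and in 0 of those matched for the reactive (23) and homeostatic (19) astrocyte lists. Of the same 14 immediate early promoters, 2 held a CArG box (14.3% against 1.64% of all) and 2 the EGR letters GCGGGGGCG on either strand (14.3% against 2.73%). The AP-1 letters TGANTCA, the same on both strands and unable to overlap a CRE, were in 0 of the 14 and in 7.33% of all promoters. Maff and Ier2 are shown since both held a CRE and did not overlap between days; Ier2, another immediate early gene, measured 72.1, 46.1 and 94.8 CPM at day 3 and 22.2, 35.03 and 25 CPM at day 14 and was chosen after its values were seen. Capitals mark the CRE, 5′ to 3′ on the gene's own strand, at chr7:112792537-112792836 (plus strand) for Maff and chr19:40399123-40399422 (plus strand) for Ier2.
Maff: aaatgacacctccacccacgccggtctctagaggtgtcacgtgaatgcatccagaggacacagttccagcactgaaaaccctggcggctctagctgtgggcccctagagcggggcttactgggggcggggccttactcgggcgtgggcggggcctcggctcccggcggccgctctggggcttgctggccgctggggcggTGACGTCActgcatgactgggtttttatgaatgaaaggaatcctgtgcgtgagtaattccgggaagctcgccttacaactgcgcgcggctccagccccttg
Ier2: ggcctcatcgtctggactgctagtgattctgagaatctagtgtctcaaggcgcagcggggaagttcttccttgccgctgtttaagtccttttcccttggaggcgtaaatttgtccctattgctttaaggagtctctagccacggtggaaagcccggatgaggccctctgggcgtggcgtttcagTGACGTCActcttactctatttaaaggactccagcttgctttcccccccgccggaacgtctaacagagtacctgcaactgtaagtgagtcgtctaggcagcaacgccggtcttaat
A match is a run of letters in a window, not a measured binding site.

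Transcription factors and feedback regulators of inflammation were lower at day 14 in 18 of 18 members (median -0.74), 5 of them without overlap (27.8% against 9.43%). Socs3, the brake on STAT3 signalling, measured 192, 95.97 and 359 CPM at day 3 and 7.99, 40.8 and 26.4 CPM at day 14, with a sham mean of 3.96 CPM. Stat3 itself, which carries the signal of IL-6 type cytokines, measured 384, 224 and 465 CPM at day 3 and 138, 219.9 and 149 CPM at day 14. The 2 groups came within a few CPM of each other for Stat3, through day 3 replicate 2 and day 14 replicate 2. Cebpb, a factor of the acute phase response, overlapped (58.6, 23.3 and 74.5 CPM at day 3 and 10.04, 26.5 and 17.6 CPM at day 14). With day 3 replicates 1 and 3 left out, the list's median was -0.00790, and with single libraries left out it ran from -1.01 without day 3 replicate 2 to -0.48 without day 3 replicate 3.

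Cytokines of the IL-1, TNF and IL-6 families and their receptors were lower at day 14 in 19 of 23 members (median -0.89), but without overlap in 2 (8.70%), near the share of all genes. Il11, a cytokine of the IL-6 family, measured 13.6, 0.117 and 34.8 CPM at day 3 and 0, 0 and 0.0615 CPM at day 14, so that its difference came from day 3 replicates 1 and 3. The receptors Tnfrsf1a (159, 79.8 and 188 CPM at day 3 and 37.2, 82.6 and 48.4 CPM at day 14) and Il1r1 (91.1, 42.9 and 125 CPM at day 3 and 24.3, 46.3 and 25.4 CPM at day 14) overlapped through day 14 replicate 2. Chemokines and their receptors were lower in 24 of 30 (median -1.43), with 7 not overlapping (23.3% against 9.43%). Ccl2, which draws monocytes, measured 21.8, 4.18 and 75.8 CPM at day 3 and 1.42, 3.57 and 2.07 CPM at day 14. Cxcl1, which draws neutrophils, measured 2.10, 1.90 and 27.1 CPM at day 3 and 0.388, 0.633 and 0.446 CPM at day 14. Both were highest in day 3 replicate 3, and for Ccl2 day 3 replicate 2 and day 14 replicate 2 nearly met. Ccl12 was at most 3.64 CPM in these libraries. Left with day 3 replicate 2 alone, the medians of the cytokine and chemokine lists were 0.32 and 0.0338. With 1 library left out, the cytokine median ran from -1.32 without day 3 replicate 2 to -0.29 without day 3 replicate 3, and the chemokine median from -1.78 without day 3 replicate 2 to -0.84 without day 3 replicate 3.

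Reactive astrocyte genes showed the largest share without overlap among the lists described here on the lower side: 12 of 26 members (46.2% against 9.43%), with 24 lower at day 14 and a median log2 fold change of -1.41. Tm4sf1, a tetraspanin-like surface protein, measured 56.3, 24.6 and 74.5 CPM at day 3 and 11.3, 15.5 and 9.48 CPM at day 14. Ptgs2, the inducible cyclooxygenase that makes prostaglandins, measured 24.3, 28.4 and 47.8 CPM at day 3 and 9.81, 8.61 and 6.75 CPM at day 14. The growth factor Fgf2 measured 11.1, 7.30 and 16.8 CPM at day 3 and 1.86, 4.14 and 4.86 CPM at day 14. For Ptgs2 and Fgf2 the 3 day 3 libraries were within a few fold of each other, and for each of these genes the lowest stood above every day 14 library. Timp1, an inhibitor of metalloproteinases, measured 227, 84.8 and 428 CPM at day 3 and 30.5, 81.6 and 46.7 CPM at day 14, and here day 3 replicate 2 and day 14 replicate 2 nearly met. The filament genes of astrocytes did not separate the days: Gfap measured 4720.2, 3143 and 1305 CPM at day 3 and 1243, 5275 and 2589.7 CPM at day 14 (log2 fold change -0.00946; edgeR adjusted p = 0.994) and Vim 2956, 1414 and 4126 CPM at day 3 and 1052, 2052 and 1659.9 CPM at day 14 (log2 fold change -0.83; edgeR adjusted p = 0.455). The Gfap value had the opposite sign without day 3 replicate 1 (0.45), day 3 replicate 2 (0.0120), day 14 replicate 1 (0.36) or day 14 replicate 3 (0.0935). With day 3 replicates 1 and 3 left out, the list's median was -0.57, lower at day 14 still. Relative to sham, the list's log2 level was 2.44, 1.78 and 3.13 at day 3 and 0.68, 2.01 and 1.16 at day 14. By this level day 14 replicate 2 stood above day 3 replicate 2.

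Homeostatic astrocyte genes, which serve potassium, water and glutamate uptake, went the other way. They were higher at day 14 in 19 of 20 members (median 1.21), and 9 did not overlap (45% against 7.02% of all genes higher without overlap). The astrocyte connexins Gja1 and Gjb6 measured 145, 206 and 108 CPM at day 3 and 305, 342 and 431 CPM at day 14, and 5.52, 25.7 and 7.18 CPM at day 3 and 60.3, 33.8 and 69.4 CPM at day 14, with sham means of 339 and 75.6 CPM. Day 3 replicate 2 was the highest of its day for both. Relative to sham, the list's log2 level was -2.08, -0.71 and -2.75 at day 3 and -0.27, -0.65 and -0.27 at day 14. Without day 3 replicate 2, 15 members were called higher (against 12.9% of all genes), and with that library alone for day 3 the median was 0.42. The median ran from 0.91 without day 3 replicate 3 to 1.83 without day 3 replicate 2. The libraries lowest in these genes, day 3 replicates 1 and 3, were also those low in Snap25, and the part of that difference in the astrocyte and vessel values was not tested.

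**Figure D3:**
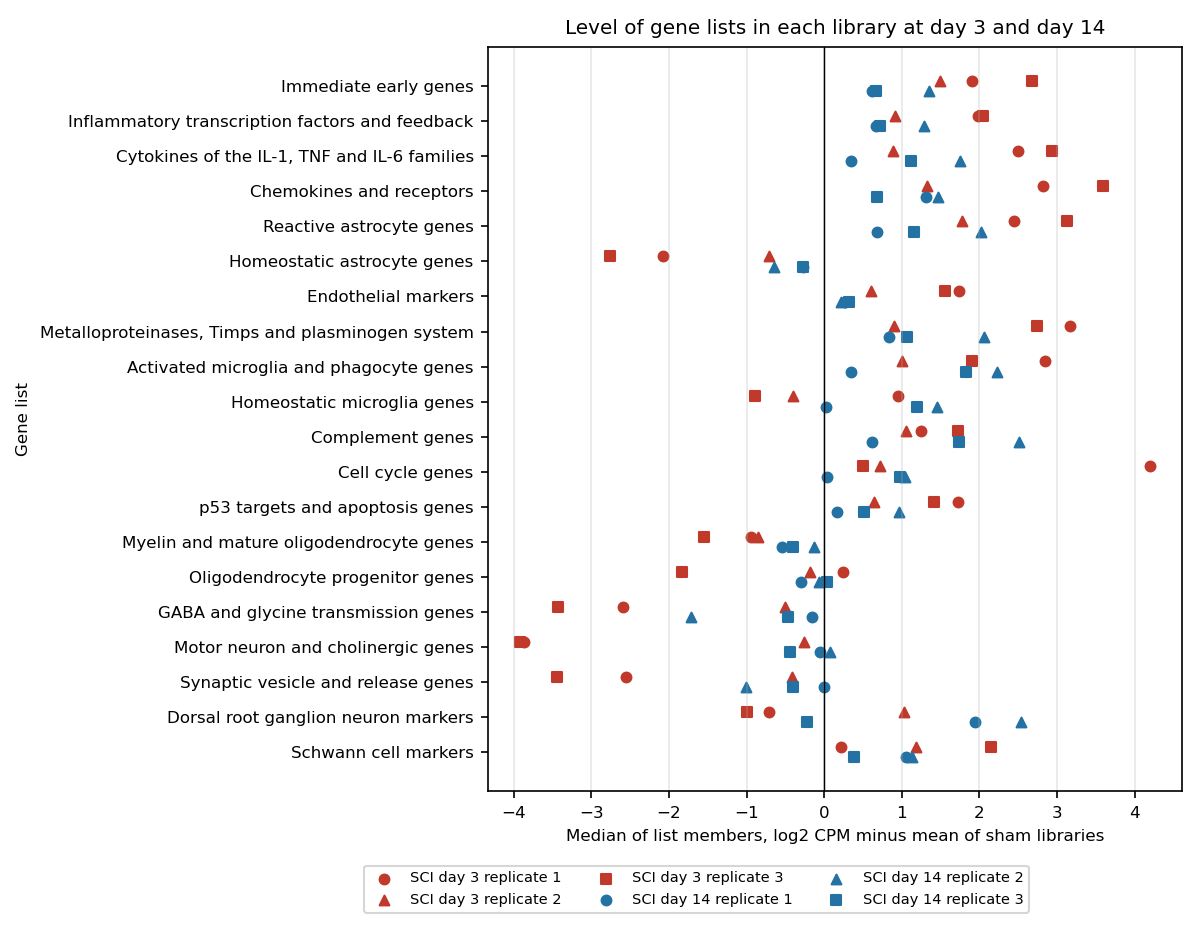
Level of 20 gene lists in each day 3 (red) and day 14 (blue) library, as the median over members of log2 CPM minus the sham mean; shapes give the replicate. Day 3 replicate 2 (red triangle) lies with the day 14 libraries for the neuronal lists. For reactive astrocyte genes it lies within their range, and for homeostatic astrocyte genes it is the day 3 library nearest to them.

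Endothelial markers were lower at day 14 in 18 of 22 members (median -1.01), and 9 did not overlap (40.9% against 9.43%). Flt1, a receptor for VEGF, measured 187, 116 and 159.7 CPM at day 3 and 84.8, 59.1 and 78.8 CPM at day 14. Egfl7, a secreted vessel protein, measured 63.8, 20.6 and 62.8 CPM at day 3 and 11.98, 16.6 and 17.9 CPM at day 14. The log2 level of the list relative to sham was 1.74, 0.61 and 1.56 at day 3 and 0.26, 0.22 and 0.32 at day 14, a narrow range at day 14. Against day 3 replicate 2 alone the list's median was -0.15. With single libraries left out it ran from -1.28 without day 3 replicate 2 to -0.94 without day 3 replicate 1. Pericyte and smooth muscle markers were lower in 12 of 16 (median -0.49, running from -0.61 without day 14 replicate 3 to -0.18 without day 3 replicate 1), and 3 did not overlap (18.8% against 9.43%). The muscle filament Des measured 39.6, 28.3 and 27.2 CPM at day 3 and 11.1, 14.6 and 13.7 CPM at day 14. The receptor Notch3 measured 82.8, 51.9 and 61.6 CPM at day 3 and 42.8, 34.1 and 44.3 CPM at day 14. Both were without overlap, while the channel subunit Abcc9 overlapped (log2 fold change -0.86). Of the endothelial list, 14 were called lower without day 3 replicate 2 and 9 by DESeq2, against 9.86% and 4.7% of all genes.

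Metalloproteinases, their inhibitors and the plasminogen system were lower in 17 of 22 (median -0.60), 6 without overlap (27.3% against 9.43%) and 1 without overlap on the higher side (4.55% against 7.02%). Against day 3 replicate 2 alone the list's median was 0.22. With single libraries left out it ran from -0.92 without day 14 replicate 2 to -0.49 without day 3 replicate 1. Relative to sham, the list's log2 level was 3.17, 0.90 and 2.74 at day 3 and 0.84, 2.06 and 1.06 at day 14. The proteoglycan-cutting enzymes Adamts9 and Adamts1 measured 97.7, 23.3 and 170.1 CPM at day 3 and 15.9, 12.4 and 10.3 CPM at day 14, and 283, 115 and 508 CPM at day 3 and 49.6, 105 and 39.2 CPM at day 14. Fibroblast, collagen and matrix genes were lower in 28 of 38 (median -0.37), but 4 did not overlap (10.5%), near the share of all genes. The median of this list ran from -0.62 without day 3 replicate 2 to 0.0102 without day 3 replicate 3. Against day 3 replicate 2 alone it was 0.35. Ccn1, a matricellular protein induced early, measured 154, 90.1 and 242 CPM at day 3 and 23.9, 54.7 and 40.7 CPM at day 14. Col18a1, a vessel collagen, overlapped (log2 fold change -1.36). The matrix protein Thbs2 also overlapped, at 568, 76 and 340.3 CPM at day 3 and 53.6, 143 and 112 CPM at day 14, and against day 3 replicate 2 alone it was higher at day 14. Of the meningeal fibroblast markers, 6 were lower and 7 higher at day 14, with a median of 0.12 that ran from -0.0899 without day 14 replicate 2 to 0.48 without day 3 replicate 3. Without overlap 3 of 13 were higher (23.1% against 7.02%) and 0 lower, the higher ones including Ptgds, the prostaglandin D synthase (186, 387 and 211 CPM at day 3 and 575, 919 and 506 CPM at day 14), and the transporter Slc6a13 (6.12, 10.95 and 11.4 CPM at day 3 and 16.5, 39.1 and 20.4 CPM at day 14).

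Microglia and phagocytes gave a mixed picture. Homeostatic microglia genes were higher at day 14 in 15 of 18 members (median 1.18), 5 without overlap (27.8% against 7.02%). Siglec5, a sialic acid receptor, measured 1.32, 1.75 and 1.48 CPM at day 3 and 5.77, 14.3 and 6.76 CPM at day 14. Olfml3, a secreted protein of microglia, measured 17.3, 15.4 and 14.5 CPM at day 3 and 28.6, 51.3 and 38.5 CPM at day 14. Entpd1, an enzyme that breaks down extracellular ATP and is shared with endothelium, had the opposite sign, at 139, 38.8 and 132 CPM at day 3 and 30.7, 43.2 and 34.9 CPM at day 14. Against day 3 replicate 2 alone the list's median was 1.65, and it ran from 0.77 without day 3 replicate 3 to 1.63 without day 3 replicate 1. Relative to sham, the list's log2 level was 0.95, -0.40 and -0.90 at day 3 and 0.03, 1.45 and 1.20 at day 14, so that day 3 replicate 1 stood above day 14 replicate 1.

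Genes of activated microglia and phagocytes did not separate the days as a list. The median of the 34 members was -0.33, running from -0.89 without day 14 replicate 2 to 0.40 without day 3 replicate 1, and 2 did not overlap (5.88% against 9.43%). The log2 level of the list relative to sham was 2.85, 1.0 and 1.90 at day 3 and 0.35, 2.23 and 1.83 at day 14, so day 14 replicate 1 lay closest to sham. Apoe, the lipid carrier that phagocytes and astrocytes secrete, measured 1315, 1519 and 784 CPM at day 3 and 1472, 4524 and 4801 CPM at day 14. Cd68, a lysosomal marker of phagocytes, measured 43.02, 7.52 and 12.8 CPM at day 3 and 4.08, 83.7 and 40.6 CPM at day 14. Aif1, a general marker of these cells, measured 21.4, 8.31 and 9.45 CPM at day 3 and 5.35, 23.4 and 18.8 CPM at day 14. Day 14 replicate 1 was the lowest of its day for all 3 genes, and the groups overlapped. Without day 14 replicate 2 the log2 fold change of Aif1 was -0.11, against 0.28 with it. The endotoxin co-receptor Cd14 (86.8, 10.1 and 36.2 CPM at day 3 and 4.63, 11.8 and 9.73 CPM at day 14) and the tetraspanin Cd63 (642, 206 and 459 CPM at day 3 and 125, 242 and 171 CPM at day 14) leaned the other way through day 3 replicates 1 and 3.

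Complement genes had a median of 0.26 that ran from 0.0155 without day 3 replicate 2 to 0.68 without day 14 replicate 1. Of the members tested, 1 of 20 was lower without overlap (5% against 9.43%), C6 (log2 fold change -1.10). C3, the central component, measured 45.8, 23.6 and 82.5 CPM at day 3 and 78.4, 846 and 207 CPM at day 14. Cfp, the stabiliser of the alternative pathway, measured 9.74, 9.13 and 8.57 CPM at day 3 and 8.96, 16.5 and 21.5 CPM at day 14. Of the MHC class II genes, 0 of 10 were without overlap on either side, and the median of 0.41 ran from -0.58 without day 14 replicate 2 to 0.68 without day 14 replicate 3. Cd74, the invariant chain, measured 29.01, 25.6 and 48.9 CPM at day 3 and 32.8, 269 and 32.9 CPM at day 14. RT1-Ba, a class II chain, measured 2.63, 2.38 and 2.80 CPM at day 3 and 2.83, 19.5 and 2.27 CPM at day 14. Day 14 replicate 2 was far above the other libraries for C3, Cd74 and RT1-Ba, and for C3 day 14 replicate 3 was also above the day 3 libraries. Without day 14 replicate 2 the log2 fold changes of Cd74 and RT1-Ba were -0.0559 and -0.0200. MHC class I genes were lower at day 14 in 16 of 18 (median -0.60), with 3 lower (16.7% against 9.43%) and 1 higher (5.56% against 7.02%) without overlap. RT1-N3, a class I molecule that may share reads with related copies, measured 21.3, 10.6 and 15.6 CPM at day 3 and 7.87, 7.95 and 9.76 CPM at day 14. The proteasome activator Psme2 measured 42.1, 26.6 and 41.9 CPM at day 3 and 20.4, 26.1 and 17.4 CPM at day 14. Interferon response genes were lower in 31 of 34 (median -0.64, running from -1.06 without day 14 replicate 2 to -0.11 without day 3 replicate 3). Against day 3 replicate 2 alone that median was 0.18. Of the members tested, 2 did not overlap (5.88% against 9.43%), Isg20 (log2 fold change -1.99) and Ifitm3 (75.6, 78.8 and 161 CPM at day 3 and 25.7, 53.8 and 31.04 CPM at day 14).

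Neutrophil markers were lower at day 14 in 13 of 15 (median -1.49), 5 without overlap (33.3% against 9.43%). The granule protein S100a9 measured 15.1, 16 and 13.4 CPM at day 3 and 3.42, 11.2 and 1.23 CPM at day 14, against 0.308, 24.4 and 0 CPM in sham, so that sham replicate 2 exceeded every SCI library compared here. Lcn2, a siderophore-binding protein made by neutrophils and reactive astrocytes, measured 29.8, 44.04 and 50.8 CPM at day 3 and 1.62, 12.1 and 9.63 CPM at day 14. The gelatinase Mmp9 measured 25.8, 23.7 and 16.1 CPM at day 3 and 1.44, 5.63 and 1.29 CPM at day 14. Mpo, another member, overlapped, at 4.997, 35.2 and 2.80 CPM at day 3 and 0.454, 6.09 and 0.983 CPM at day 14. Its log2 fold change was -2.51, or -0.63 without day 3 replicate 2. The list's median was -1.60 against day 3 replicate 2 alone, and with single libraries left out it ran from -2.67 without day 14 replicate 2 to -0.86 without day 3 replicate 2. DESeq2 called 0 of the 15 lower, against 4.7% of all genes. In edgeR 1 was lower at an unadjusted p under 0.05, against 11% of all genes. Monocyte and border macrophage markers had a median of -0.65 (running from -0.95 without day 3 replicate 2 to -0.26 without day 14 replicate 1) with 2 of 16 lower without overlap (12.5%). Against day 3 replicate 2 alone their median was 0.34. T, B and NK cell markers had a median of -0.94 (running from -1.39 without day 14 replicate 2 to -0.49 without day 3 replicate 2) with 3 of 19 lower without overlap (15.8%), against 9.43% of all genes.

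Cell cycle genes were lower at day 14 in all 43 members tested, with a median of -2.0, and 9 did not overlap (20.9% against 9.43%). Mcm6 and Mcm3, subunits of the replication helicase, measured 73.2, 14.3 and 18.3 CPM at day 3 and 8.02, 8.28 and 10.2 CPM at day 14, and 72.6, 13.4 and 19.6 CPM at day 3 and 4.97, 11.3 and 7.88 CPM at day 14. The licensing factor Cdt1 measured 28.3, 4.98 and 7.01 CPM at day 3 and 3.30, 3.52 and 3.13 CPM at day 14. For these genes of DNA replication the day 3 libraries all lay above the day 14 libraries, with day 3 replicate 1 far above the rest. Mki67, a marker of dividing cells, measured 214, 18.9 and 12.5 CPM at day 3 and 9.84, 28.1 and 21.8 CPM at day 14, and it overlapped (log2 fold change -2.04, or 0.34 without day 3 replicate 1). Relative to sham, the list's log2 level was 4.20, 0.72 and 0.50 at day 3 and 0.04, 1.05 and 0.97 at day 14. Day 3 replicate 1 was the one library far from the others in this list: without it the list's median was 0.0515, and against day 3 replicate 2 alone the median was -0.0846.

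Of the p53 targets and apoptosis genes, 18 of 20 were lower at day 14 (median -0.69) and 5 did not overlap (25% against 9.43%). Against day 3 replicate 2 alone the median was -0.0753. With single libraries left out it ran from -0.96 without day 14 replicate 2 to -0.55 without day 14 replicate 1. The death effector Bax measured 28.6, 18.5 and 26.2 CPM at day 3 and 14.9, 14.6 and 14.03 CPM at day 14. Mdm2, the ligase that degrades p53, measured 97.6, 38.8 and 77.6 CPM at day 3 and 27.9, 35.6 and 35.4 CPM at day 14. Mcl1, which blocks cell death, overlapped (log2 fold change -1.14). Of the endoplasmic reticulum and heat shock genes, 6 of 21 were lower without overlap (28.6% against 9.43%), with a list median of -0.42. Against day 3 replicate 2 alone that median was -0.0844. With single libraries left out it ran from -0.60 without day 3 replicate 2 to -0.38 without day 3 replicate 3. Atf4, the factor of the integrated stress response, measured 279, 192 and 329 CPM at day 3 and 138, 138 and 131 CPM at day 14, with 133, 147 and 133 CPM in sham. The 3 day 14 libraries of Atf4 were nearly equal. Hspa5, the main chaperone of the endoplasmic reticulum, measured 556, 395 and 1130.2 CPM at day 3 and 374, 337 and 274 CPM at day 14. Shmt2, a mitochondrial enzyme of serine use, measured 87.8, 43.6 and 61.4 CPM at day 3 and 37.95, 37.6 and 30.2 CPM at day 14.

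Hypoxia and glycolysis genes had a median of -0.11 that ran from -0.16 without day 14 replicate 1 to 0.0296 without day 14 replicate 2. Without overlap were 5 lower (21.7% against 9.43%) and 2 higher (8.70% against 7.02%) of 23 members. Hif1a, the oxygen-regulated transcription factor, measured 283, 150.4 and 244 CPM at day 3 and 114, 109.7 and 104 CPM at day 14. The lactate dehydrogenase Ldha measured 398, 211 and 699.7 CPM at day 3 and 140.4, 192 and 152 CPM at day 14. The glucose transporter Slc2a1 measured 469.7, 259.6 and 360.2 CPM at day 3 and 153, 188 and 234 CPM at day 14. These 3 were lower at day 14 in every library, which the list as a whole was not. In iron and heme handling 3 of 17 were lower (17.6% against 9.43%) and 2 higher (11.8% against 7.02%) without overlap. The median of -0.29 ran from -0.51 without day 3 replicate 2 to 0.0549 without day 3 replicate 1. Hmox1, which breaks down heme, measured 204, 44.2 and 224 CPM at day 3 and 13.2, 42.3 and 41.5 CPM at day 14. The transferrin receptor Tfrc measured 221, 143 and 399 CPM at day 3 and 136, 128 and 115 CPM at day 14. For Hmox1 day 3 replicate 2 came within a few CPM of day 14 replicates 2 and 3. Glucocorticoid response genes and metallothioneins had a median of -0.15 that ran from -0.40 without day 14 replicate 3 to 0.12 without day 14 replicate 1. Without overlap were 1 lower and 1 higher of 18 (5.56% and 5.56% against 9.43% and 7.02%). Plin4, a lipid droplet protein of that list, was the higher one (1.73, 3.22 and 1.20 CPM at day 3 and 3.98, 10.5 and 14.9 CPM at day 14). Clock genes had a median of -0.11 with all libraries and from -0.10 without day 3 replicate 1 to 0.10 without day 14 replicate 2 with 1 left out. Without overlap 3 of 19 were lower (15.8% against 9.43%). Among them were the repressor Cry1 (28.5, 22.6 and 22.2 CPM at day 3 and 15.3, 13.2 and 15.3 CPM at day 14) and Bhlhe40 (73.9, 77.7 and 99.6 CPM at day 3 and 46.9, 68.4 and 42.8 CPM at day 14).

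Genes of cholesterol and fatty acid synthesis were lower at day 14 in 21 of 30 members, with a median of -0.18 that ran from -0.51 without day 14 replicate 1 to 0.0748 without day 14 replicate 3. Of all members, 2 lower (6.67% against 9.43%) and 1 higher (3.33% against 7.02%) did not overlap. The higher one was Srebf1. The sterol oxidase Msmo1 measured 271, 293 and 337 CPM at day 3 and 246, 168 and 85.3 CPM at day 14, lowest in day 14 replicate 3. In cholesterol efflux and lipid storage 5 of 17 were lower (29.4% against 9.43%) and 2 higher (11.8% against 7.02%) without overlap. The median of -0.0631 ran from -0.16 without day 14 replicate 2 to 0.29 without day 3 replicate 1. Abcg1, which exports cholesterol, measured 42.5, 46.3 and 37.5 CPM at day 3 and 57.7, 77.01 and 114 CPM at day 14. Plin2, which coats lipid droplets, measured 289.9, 82.4 and 142 CPM at day 3 and 26.7, 68.9 and 39.6 CPM at day 14. Abcg1 was thus higher and Plin2 lower at day 14 in every library.

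Myelin and mature oligodendrocyte genes were higher at day 14 in 16 of 21 members (median 0.54), 6 without overlap (28.6% against 7.02%). Aspa, which splits N-acetylaspartate in oligodendrocytes, measured 60.7, 63.4 and 63.8 CPM at day 3 and 92.5, 90.6 and 90.3 CPM at day 14. Opalin, a surface protein of mature oligodendrocytes, measured 71.3, 89.7 and 34.1 CPM at day 3 and 159, 109 and 164 CPM at day 14. Ermn, a late cytoskeletal protein of these cells, measured 172, 219.9 and 84.6 CPM at day 3 and 381, 418 and 253 CPM at day 14. The 3 day 3 libraries of Aspa lay within a few CPM of each other, as did those of day 14. Mbp, which Schwann cells also express, measured 19201, 18379 and 30622 CPM at day 3 and 16201, 23058 and 17955 CPM at day 14 and overlapped (log2 fold change -0.25, or 0.0211 without day 3 replicate 3). For comparison, the log2 level of the Schwann cell list relative to sham was 0.22, 1.18 and 2.15 at day 3 and 1.05, 1.14 and 0.38 at day 14. The myelin median was 0.44 against day 3 replicate 2 alone and 0.55 without it, and over all single libraries left out it ran from 0.26 without day 3 replicate 3 to 0.78 without day 3 replicate 1. Of the oligodendrocyte progenitor genes 7 were lower and 10 higher at day 14, with a median of 0.27 that ran from -0.0770 without day 3 replicate 3 to 0.63 without day 3 replicate 1. Without overlap 3 of 17 were higher (17.6% against 7.02%) and 0 lower, the higher ones being Gpr17 of committed progenitors (13.8, 43.5 and 9.66 CPM at day 3 and 53.3, 71.7 and 72.1 CPM at day 14), the sialidase Neu4 (log2 fold change 1.68) and the matrix protein Tnr (1.18).

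Neuronal genes were higher at day 14 in the group mean, but the day 3 libraries did not stand together. GABA and glycine genes were higher in 27 of 29 (median 0.95), glutamate genes in 27 of 29 (0.91), synaptic vesicle genes in 25 of 26 (1.09) and motor neuron genes in 19 of 21 (1.41). Of these, 2, 4, 0 and 3 were higher without overlap, a share of members tested of 6.90%, 13.8%, 0% and 14.3% against 7.02% of all genes. Chat, which makes acetylcholine in motor neurons, measured 1.99, 28.8 and 1.37 CPM at day 3 and 32.7, 42.7 and 31.96 CPM at day 14. Slc12a5, the chloride exporter that makes inhibition work in mature neurons, measured 31.99, 383 and 31.5 CPM at day 3 and 456, 94.7 and 391 CPM at day 14. Day 3 replicate 2 lay near the day 14 libraries for Chat and near day 14 replicates 1 and 3 for Slc12a5. Day 14 replicate 2 was low for Slc12a5 and not for Chat. At day 14 the log2 level relative to sham was -0.16, -1.72 and -0.47 for GABA and glycine genes. It was -0.19, -1.40 and -0.37 for glutamate genes and -0.00879, -1.01 and -0.40 for synaptic vesicle genes. Replicate 2 was thus the lowest of its day in these lists, but not for motor neuron genes (-0.05, 0.07 and -0.44). Without day 3 replicate 2, 18 GABA and glycine, 20 glutamate, 22 synaptic vesicle and 19 motor neuron genes were called higher, against 12.9% of all genes. Against that library alone, the 4 medians were -0.10, -0.10, -0.0339 and -0.00857.

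Some neuronal genes kept the groups apart. Of the neurofilament and neuronal cytoskeleton genes, 3 of 20 were higher without overlap (15% against 7.02%) and 0 lower. Of the neuronal sodium, calcium and potassium channels, 3 of 29 were higher (10.3% against 7.02%) and 1 lower (3.45% against 9.43%). The medians of these 2 lists were 1.17 and 0.91, and 0.0108 and -0.0640 against day 3 replicate 2 alone. The glycine transporter Slc6a9, which astrocytes also express, measured 123, 169.6 and 36.3 CPM at day 3 and 248, 237 and 255 CPM at day 14. Mapt, the axonal microtubule protein tau, measured 111, 275 and 76.8 CPM at day 3 and 406, 284 and 404 CPM at day 14. The kainate receptor subunit Grik4 measured 20.1, 30.95 and 5.84 CPM at day 3 and 49.7, 42.4 and 50.9 CPM at day 14. The nicotinic receptor subunit Chrnb2 measured 6.70, 18.1 and 2.79 CPM at day 3 and 30.3, 27.1 and 18.6 CPM at day 14. Day 3 replicate 3 was the lowest library for all 4. Hcn2, a pacemaker channel, measured 74.2, 225 and 43.3 CPM at day 3 and 343, 254 and 333 CPM at day 14. Uts2, a peptide of motor neurons, measured 0.756, 6.32 and 0.448 CPM at day 3 and 10.96, 14.1 and 8.74 CPM at day 14. Homer1, a postsynaptic scaffold induced by activity, was on the lower side, at 19.3, 15.7 and 17.6 CPM at day 3 and 12.95, 12.1 and 11.8 CPM at day 14. Of the serotonin, adrenergic and dopamine receptors 4 of 25 were higher without overlap (16% against 7.02%). The list's median was 1.12, and 0.28 against day 3 replicate 2 alone. The 4 included Htr3a, a channel that sensory neurons also express (0.914, 8.98 and 4.88 CPM at day 3 and 13.6, 28.9 and 9.05 CPM at day 14), and Adra2a (10.9, 15.3 and 11.8 CPM at day 3 and 21.3, 15.7 and 19.3 CPM at day 14). Bcan, a proteoglycan of perineuronal nets and glia, measured 38.2, 161 and 28.7 CPM at day 3 and 239, 216 and 284 CPM at day 14, while the related Ncan overlapped (406, 138 and 55.1 CPM at day 3 and 58.3, 75.03 and 54.9 CPM at day 14).

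Sensory ganglion markers were higher at day 14 in 27 of 28 members (median 1.88), with 1 without overlap (3.57% against 7.02%), Ret (76.7, 113 and 23.2 CPM at day 3 and 166, 253 and 119.7 CPM at day 14). The log2 level of the list relative to sham was -0.71, 1.02 and -0.99 at day 3 and 1.95, 2.54 and -0.22 at day 14, so it was high in day 3 replicate 2 and day 14 replicates 1 and 2. With those 2 day 14 libraries left out, the median was -0.40. The cold channel Trpm8 of sensory neurons measured 0.682, 2.34 and 0.406 CPM at day 3 and 9.05, 14.9 and 0.384 CPM at day 14. Ngfr, a neurotrophin receptor of Schwann cells and sensory neurons, measured 38.9, 40.2 and 29.8 CPM at day 3 and 83.2, 212 and 57.3 CPM at day 14, highest in day 14 replicate 2. The part of ganglion transcripts in the neuronal values of those libraries was not tested.

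Regeneration-associated genes, known from injured neurons, gave 1 lower and 1 higher of 25 without overlap (4% and 4% against 9.43% and 7.02%). Their median of -0.42 ran from -0.61 without day 3 replicate 2 to 0.00968 without day 3 replicate 1. The tubulin Tubb6 (269, 48.7 and 151 CPM at day 3 and 34.7, 56.3 and 24.8 CPM at day 14) and the factor Klf6 (168, 74.3 and 185 CPM at day 3 and 44.6, 80.9 and 47.9 CPM at day 14) overlapped through day 3 replicate 2 and day 14 replicate 2. Growth factors, neurotrophins and their receptors gave 4 lower and 1 higher of 33 (12.1% and 3.03% against 9.43% and 7.02%), with a median of -0.14 that ran from -0.37 without day 14 replicate 2 to 0.0420 without day 3 replicate 3. Nuclear genes of oxidative phosphorylation were higher in 37 of 40 by little (median 0.16), with 0 without overlap. Relative to sham, their log2 level was -0.53, -0.06 and -0.69 at day 3 and -0.09, -0.43 and -0.19 at day 14, lowest in day 3 replicates 1 and 3.

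Ependymal markers had a median of -0.83 that ran from -1.34 without day 3 replicate 1 to -0.39 without day 3 replicate 3. Of them 1 lower and 1 higher of 13 were without overlap (7.69% and 7.69%), near the shares of all genes (9.43% and 7.02%). Their log2 level relative to sham ranged from -2.17 in day 3 replicate 1 to 0.89 in day 3 replicate 3. Spinal neuropeptides had a median of 0.55 that ran from 0.0840 without day 3 replicate 3 to 0.92 without day 3 replicate 2. Of them 1 lower and 2 higher of 20 did not overlap (5% and 10% against 9.43% and 7.02%). Skeletal muscle, erythrocyte and adipocyte markers had medians of 0.0272, -0.0761 and 0.46 over 13, 8 and 5 members. With single libraries left out these ran from -0.48 to 0.70, from -0.74 to 0.36 and from -0.013 to 0.76, so none kept its sign. Genes of the mitochondrial genome were higher at day 14 in 13 of 13, with 0 without overlap and a median of 0.22. Against day 3 replicate 2 alone that median was -0.27. Relative to sham, their log2 level was -0.80, 0.0906 and -0.74 at day 3 and -0.15, -0.48 and -0.00766 at day 14.

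**Figure D4:**
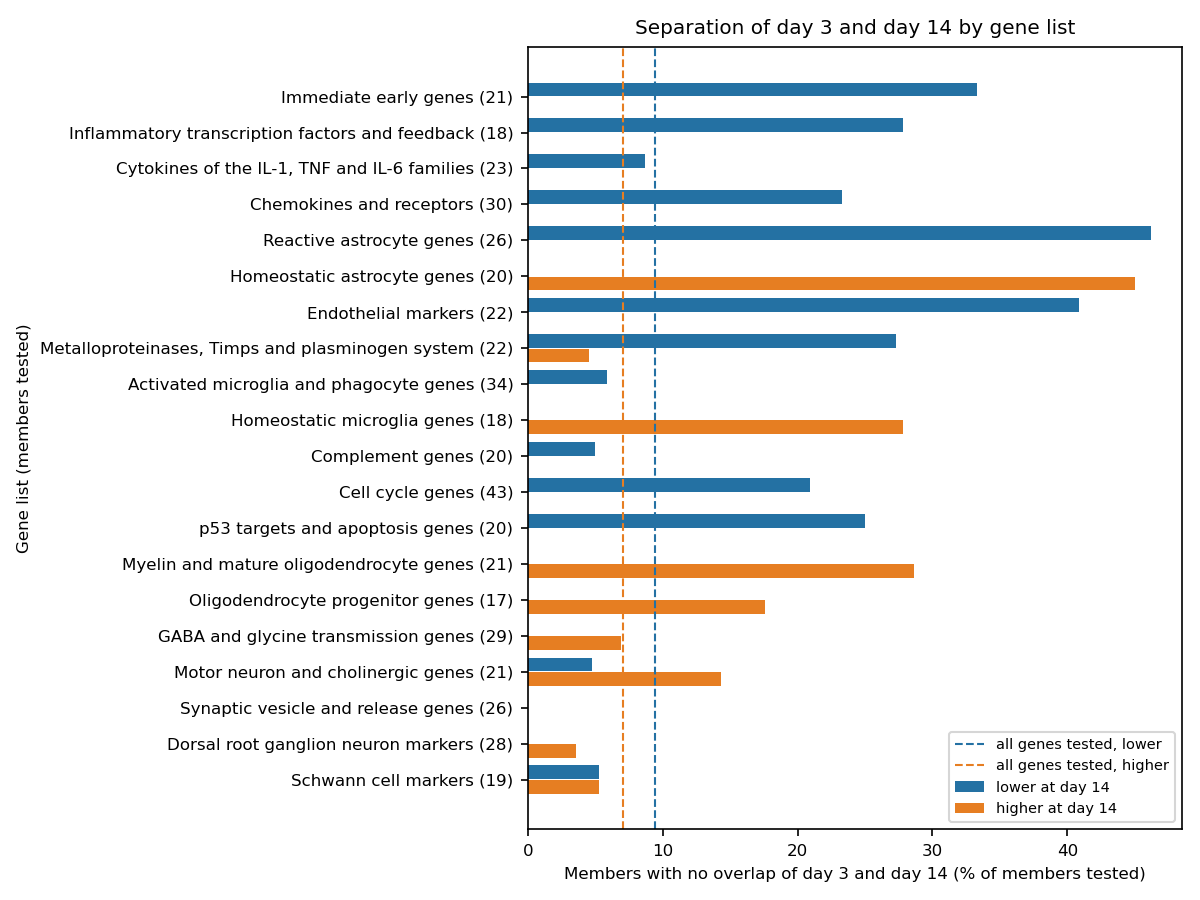
Share of the members tested of 20 gene lists whose 3 day 14 libraries all lie below (blue) or above (orange) the 3 day 3 libraries; dashed lines give the shares over all genes tested, 9.43% and 7.02%. Reactive astrocyte genes (46.2%) and endothelial markers (40.9%) stand out on the lower side and homeostatic astrocyte genes (45%) on the higher side, while synaptic vesicle genes show 0 on both.

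Set side by side, the lists differed in how far they rested on single day 3 libraries. Against day 3 replicate 2 alone, reactive astrocyte genes (-0.57), immediate early genes (-0.32), homeostatic astrocyte genes (0.42), myelin genes (0.44) and homeostatic microglia genes (1.65) kept the sign they had with all libraries. Endothelial markers also kept theirs, but at -0.15 against -1.01. Activated microglia genes (0.74 against -0.33), cytokines (0.32 against -0.89), metalloproteinases (0.22 against -0.60) and GABA and glycine genes (-0.10 against 0.95) had the opposite sign. In all, 20 of 50 lists turned the sign of their median in this setting, which has 1 library at day 3 and gives no replicate check of that group.

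**Figure D5:**
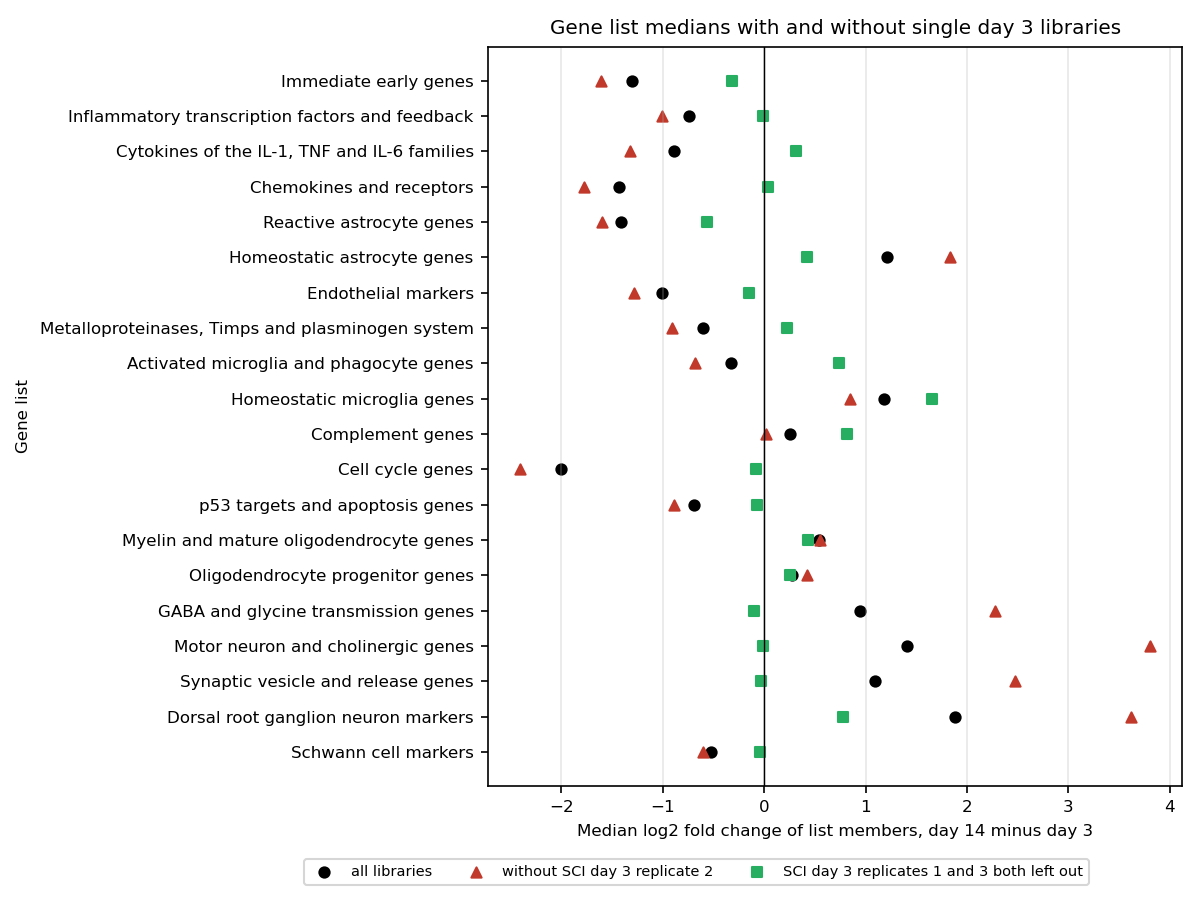
Median log2 fold change (day 14 minus day 3) of 20 gene lists with all libraries (black), without day 3 replicate 2 (red) and with day 3 replicates 1 and 3 left out (green). GABA and glycine, motor neuron and synaptic vesicle genes lie near 0 in green and at 2.27, 3.81 and 2.47 in red, while reactive astrocyte genes stay below 0 and homeostatic microglia genes above 0 in all 3 settings.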

How the data were processed

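RNA of rat lumbar spinal cord was measured by RNA-seq in 12 libraries, 3 each of sham at day 0 and of SCI at days 3, 7 and 14. Per the file headers, the authors deposited raw counts and FPKM values per gene. For the aligner, counter and annotation, nothing is stated in those sources. The submitters' processing notes list the mouse builds GRCm38 and mm10, while the gene identifiers in the table are rat Ensembl identifiers. The FPKM values were deposited by the authors and used here only to check that they were proportional to the counts. Columns were matched to libraries by name, and 0 per-sample columns were left unmatched.

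The 18714 genes that passed edgeR's filterByExpr by group (of 23526 in the table) were tested in edgeR 4.0.16 (R 4.3.3) with TMM scaling, 1 mean per group over all 12 libraries and the quasi-likelihood test, with Benjamini-Hochberg adjustment over all of them at 0.05. The residual degrees of freedom were 8 and the common biological coefficient of variation 0.4324. CPM used TMM-scaled totals. Log2 levels of lists used a prior count of 2 and are the median over members tested of log2 CPM minus the sham mean. Groups were said not to overlap where all 3 day 14 libraries lay on one side of all 3 day 3 libraries.

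Genes were named by rule. Up to 12 per direction had the smallest p among genes of at least 5 CPM in the higher group's mean, without overlap and with an established symbol, since none passed the adjusted limit. Each list added its leading members by p, at most 3, and a set of well-known markers was named in any case. Markers of cell types and of other tissues, S100a9 among them, were named outside that rule. The 50 lists hold 1109 symbols, of which 74 were not matched in the table. The comparison, the members and the lists were chosen with earlier results of these data known. Alternatives were DESeq2 1.42.0, limma 3.58.1 voom with sample weights, robust moderation, other scalings and filters, fits of fewer groups, a replicate block and leaving out libraries. The code was tested on simulated data. Promoter sequences came from RefSeq.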

Additional observations from a re-analysis of the deposited data

How the results depend on the processing

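Other scalings and filters and robust moderation turned the sign of no named gene that they tested, and called 0 genes. DESeq2 called 325 genes higher and 771 lower at day 14. With SCI day 14 replicates 1 and 2 both left out, edgeR called 1 higher (Cbs, log2 fold change 3.03, adjusted p = 0.0497) and 1 lower (Fam53b, adjusted p = 0.0328), and without SCI day 14 replicate 1 it called 1 lower (Lclat1, log2 fold change -2.10, adjusted p = 0.0192); Fam53b and Lclat1 were chosen after their values were seen. Leaving out single libraries gave 0 to 2460 genes called higher and 0 to 1882 called lower, both maxima without SCI day 3 replicate 2. At an unadjusted p under 0.05 it gave 668 (without SCI day 3 replicate 3) to 3672 higher and 1266 (without SCI day 14 replicate 1) to 3265 lower, again with both maxima without SCI day 3 replicate 2. Genes without overlap numbered 1771 to 4509 higher and 2119 to 4502 lower. Both minima were without SCI day 3 replicate 3 and both maxima without SCI day 3 replicate 2. With fewer libraries to be in order, these counts cannot fall below the 1313 and 1764 of all libraries. Unadjusted counts were 2581 higher in limma voom, 524 higher and 1119 lower in a fit of the 6 libraries compared, and 852 higher in a fit of the 9 SCI libraries. With SCI day 3 replicates 1 and 3 both left out they were 323 higher and 226 lower, with 3877 and 3881 genes without overlap; with SCI day 14 replicates 1 and 2 both left out, 621 and 858, with 5090 and 4905. With 1 library left in a group, that library was assumed to vary like the other groups, and more genes are without overlap by order alone. Single genes turned sign as follows; the cause was not tested. Gfap was at 0.0137 in the fit of 6 libraries and ran from -0.67 to 0.45 over single libraries left out. Aif1 was at -0.12 in limma voom and ran from -0.11 to 0.83, Cd74 from -0.0559 to 2.13, RT1-Ba from -0.0200 to 2.10, Mki67 from -2.55 to 0.34 and Mbp from -0.40 to 0.0211. With SCI day 3 replicates 1 and 3 both left out Vim was at 0.17, Mki67 at 0.0702, Mbp at 0.0510, Thbs2 at 0.43 and Slc12a5 at -0.29. With SCI day 14 replicates 1 and 2 both left out Cd74 was at -0.0803, RT1-Ba at -0.21, Trpm8 at -1.60 and Scn10a at -5.24. The labels number replicates in every group. The deviations of same-numbered libraries from their group means correlated at -0.47 to 0.40 over 18 pairs, so no pairing by number was seen. With 3 libraries in a group, whose deviations sum to 0, this check cannot exclude a pairing. With the replicate block 0 genes were called, 1084 were higher and 1685 lower at an unadjusted p under 0.05, and Gfap was at 0.0171. Counting error matters most for the genes of lowest CPM, such as Il11 and Ccl12 at day 14.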
